A study of Homo sapiens with 4 samples.

Results

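The lncRNAs described here carry the names of genes of the interferon response and of antigen presentation. In the deposited table such a long noncoding RNA is called lnc, then the symbol of a gene near it, then a number, so the name gives a position and not a function. Names were taken when they began with lnc- and one of the prefixes IFI, IFN, IRF, STAT, JAK, OAS, ISG, HLA, PSMB, TAP, GBP, MX1, MX2, SOCS or TRIM, after isoform rows had been summed per gene. Of the 46902 lncRNA genes in the table, 381 had such a name, and the 108 with a mean of at least 0.1 FPKM over the 4 libraries are the members. FPKM scales the fragments of a transcript by its length and by the library's mapped fragments. The members were thus chosen by their name and by their measured mean level, and the difference between the lines did not enter the rule. Another 117 of the named lncRNAs lay above 0 and below the minimum, and 156 were listed at 0 in every library.

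Libraries came from MDA-MB-231, an established human line of triple-negative breast cancer, which lacks hormone receptors and HER2 amplification, and from its subline MDA-MB-231-P3, with 2 libraries each. Per the labels, P3 came from 3 rounds in which cells were put into mouse tail veins, taken from lung tumours and grown in culture, and the labels describe no passage through mice for the parental libraries. They do not say whether P3 is 1 clone, whether host cells were removed, or whether libraries of the same line were made from separate cultures. P-values therefore rest on the spread between these 4 libraries alone, and that spread may be technical. Protein-coding markers of the line were not part of the lncRNA table, and read depth was unknown because FPKM values are not counts.

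Interferons are secreted signals that bind surface receptors. The receptors work through JAK kinases, which phosphorylate STAT factors, and STAT and IRF factors then switch on antiviral and antigen-presentation genes. Cells cut proteins in the proteasome, carry the peptides through the TAP transporter and display them on HLA molecules, which lets T cells recognise tumour cells. SOCS proteins dampen JAK signalling, and the TRIM family of ubiquitin ligases includes both enhancers and inhibitors of innate immune signalling.

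Interferon-responsive genes can be switched on through 2 short DNA elements, the interferon-stimulated response element (ISRE) and the gamma-activated site (GAS). The sequences of the lncRNAs are not used here, so the promoters of the genes they are named for are shown, to show which of these genes carry the elements. RefSeq promoters (GRCh38.p14, 250 bases before to 50 bases after the gene start) were matched for 48 of the 71 neighbouring genes. An ISRE core, read as GAAA, any 2 bases and GAAA again on either strand, was found in 9 of the 48 promoters (18.8%) and in 3.65% of all 27305 promoters in the table. The GAS pattern TTCNNNGAA, which reads the same on both strands, was found in 3 of the 48 (6.25%) and in 7.88% of all promoters. Interferon-induced neighbours held an ISRE match in 4 of 6 promoters, antigen-presentation neighbours in 2 of 9 and TRIM neighbours in 3 of 21. Below, 5 of the matches are printed in the direction of the gene, from upstream to downstream, with 1 match in capitals and 20 bases on each side. ISRE matches of ISG20 and IFITM3 read as the pattern itself, those of TAP1 and TRIM26 as its reverse complement, and IRF1 shows the GAS pattern.
ISG20: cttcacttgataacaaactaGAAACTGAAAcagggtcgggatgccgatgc
IFITM3: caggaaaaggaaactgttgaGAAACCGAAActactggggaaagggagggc
TAP1: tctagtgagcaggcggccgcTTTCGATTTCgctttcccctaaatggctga
TRIM26: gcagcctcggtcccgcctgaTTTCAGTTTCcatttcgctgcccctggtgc
IRF1: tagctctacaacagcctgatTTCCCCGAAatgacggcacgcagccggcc
In GRCh38.p14 these windows are chr15:88638927-88638976 on the plus strand for ISG20 and chr11:320866-320915 on the minus strand for IFITM3. They are chr6:32853809-32853858 for TAP1, chr6:30213571-30213620 for TRIM26 and chr5:132490869-132490917 for IRF1, all on the minus strand. A further ISRE match lies upstream of the capitals in IFITM3 and is left in lower case, and further matches in TAP1 and TRIM26 share the last bases of the capitals. A match is a description of the letters in this window and not of binding.

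No member passed the test between P3 and its parent. Of the 108 members, 60 had a mean of at least 0.5 FPKM and entered limma's test on log2(FPKM + 0.5) over 6444 lncRNA genes, and 0 of the 60 were called at a limma adjusted p under 0.05, where 0.0621% of all tested genes were called. The smallest limma adjusted p among the members was 0.241. At an unadjusted limma p under 0.05, 8 members lay higher in P3 (13.3% of 60, against 9.5% of all genes) and 2 lay lower (3.33%, against 5.68%). Both P3 libraries lay above both parental libraries for 24 of the 60 members (40%, against 28.8% of all tested genes) and below them for 9 (15.0%, against 21.4%). The difference between the shares of members and of all genes was not tested, and the members share their libraries. A member at or near 0 in the parent can pass the minimum through P3 alone, and its sign is then set by that minimum, so counts of signs among tested members here and below are descriptions. Log2 differences were positive for 34 of the 60 members (56.7%, against 54.7% of all tested genes). The median log2 difference was 0.27 for the tested members and 0.09 for all tested genes. With quantile normalization these medians were 0.15 and -0.03. In such bulk samples, fewer cells with an RNA and less RNA per cell cannot be told apart.

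**Figure D1:**
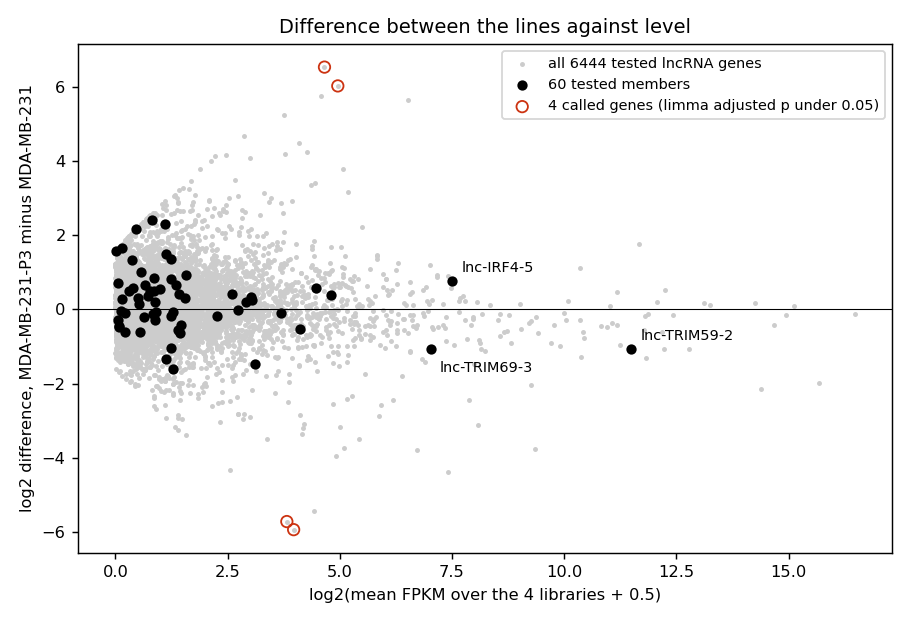
The log2 difference between the lines (P3 minus parent, on log2(FPKM + 0.5)) on the vertical axis is plotted against log2(mean FPKM + 0.5) on the horizontal axis for 6444 tested lncRNA genes (grey), the 60 tested members (black) and the 4 called genes (red circles). The members lie inside the cloud of all genes, and no member is among the called genes.

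The members were of ordinary abundance apart from a few. Their median mean level was 0.602 FPKM, against 0.511 FPKM for the 12720 lncRNA genes with a mean of at least 0.1 FPKM. Only 42 members reached a mean of 1 FPKM and 7 reached 10 FPKM. A single member, lnc-TRIM59-2, held 83.1% and 92.6% of the members' summed FPKM in the parent and 74.3% and 85.1% in P3, so any total over the members is mainly this lncRNA. The median within-line SD of the tested members was 0.38 on the log2 scale, against 0.37 for all tested genes.

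Interferon and interferon-receptor genes had few expressed lncRNA neighbours. Of 29 lncRNAs with such names, 21 were listed at 0 throughout and 4 were members. Among all 381 named lncRNAs, 156 were listed at 0 throughout and 108 were members, and the difference in shares was not tested. The 4 were named for IFNK, a type I interferon of keratinocytes, and for IFNAR1, a subunit of the type I interferon receptor. The most abundant, lnc-IFNK-5, had 1.15 and 0.0541 FPKM in the parent and 1.45 and 0.557 FPKM in P3, so the lines overlapped (log2 difference 0.59, SE 0.69, limma adjusted p = 0.686). Its sign depended on parental replicate 2, without which the log2 difference was -0.20. The lncRNA lnc-IFNAR1-1 had 0.225 and 0.0769 FPKM in the parent and 0.467 and 0.496 FPKM in P3, below the level needed for the test. For lnc-IFNAR1-2 the values were 0.296 and 0 FPKM in the parent and 0.158 and 0.586 FPKM in P3, which overlap.

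All 4 tested lncRNAs named for JAK or STAT genes had both P3 libraries above both parental ones, against 28.8% of all tested genes. Their median log2 difference was 0.72, and 0 of the 4 were called. The tested members described below had differences of 0.35 to 0.94. For a member at 0 in the parent the minimum sets the sign, so the count and the median are descriptions. JAK1 is a kinase used by type I, II and III interferon receptors. The lncRNA lnc-JAK1-2 had 1.78 and 1.30 FPKM in the parent and 3.16 and 3.62 FPKM in P3, with no overlap. The means were 1.54 ± 0.343 and 3.39 ± 0.321 FPKM (SD, n = 2 each), a 2.20-fold higher level in P3 and on the log2 scale 0.94 higher (SE 0.28, limma adjusted p = 0.285). STAT3, which answers mainly to IL-6-type cytokines, has 2 tested neighbours. Of these, lnc-STAT3-1 had 0.929 and 0.964 FPKM in the parent and 1.35 and 1.34 FPKM in P3 (log2 difference 0.35, SE 0.26, limma adjusted p = 0.547), and lnc-STAT3-2 had 0.467 and 0.587 against 0.825 and 1.09 FPKM. Both differences were smaller than that of lnc-JAK1-2. The untested members lnc-STAT4-1 and lnc-STAT5A-2 overlapped between the lines.

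Among lncRNAs named for interferon regulatory factors (IRF), those near IRF4 were the most numerous and held the highest level. IRF4 is a transcription factor best known from lymphoid cells, and 7 of the 15 IRF members carry its name. The gene spans 391739 to 411443 on chromosome 6 (hg19, plus strand). The second most abundant of all members, lnc-IRF4-5, had 112 and 150 FPKM in the parent and 300.1 and 163 FPKM in P3. Both P3 libraries lay above both parental ones, but P3 replicate 2 lay close to parental replicate 2. The means were 131 ± 27.0 and 232 ± 96.7 FPKM (SD, n = 2 each), and the log2 difference was 0.77 (SE 0.41, limma adjusted p = 0.444). Without P3 replicate 1 it was 0.33.

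Of the other 6 IRF4 neighbours, 3 were listed at 0 in both parental libraries. The lncRNA lnc-IRF4-9 was at 0 in both parental libraries and at 1.12 and 3.90 FPKM in P3. Its log2 difference of 2.42 (SE 0.58, limma adjusted p = 0.268) was the largest of any member. It passed the minimum through P3 alone, so the minimum sets its sign. Listed in a single library each were lnc-IRF4-21, at 1.30 FPKM in P3 replicate 1, and lnc-IRF4-10, at 1.94 FPKM in P3 replicate 2. For lnc-IRF4-12 the values were 0.910 and 0.882 FPKM in the parent and 1.82 and 1.17 FPKM in P3. At a low level, lnc-IRF4-22 had 0.0810 and 0.0471 FPKM in the parent and 0.156 and 0.198 FPKM in P3. The last, lnc-IRF4-6, had a mean close to the minimum of the rule.

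Neighbours of IRF1 had negative and those of IRF2 positive log2 differences, most of them with overlap or near the minimum level. Of the IRF2 neighbours, lnc-IRF2-5 was above 0.01 FPKM in P3 replicate 1 only, at 0.410 FPKM, so the minimum sets its sign. A contrast between IRF1 and IRF2 neighbours was not tested. IRF1 activates many interferon-induced genes and IRF2 competes with it. The lncRNA lnc-IRF2-1 had 1.14 and 1.30 FPKM in the parent and 1.56 and 1.41 FPKM in P3, 0.21 apart on the log2 scale (SE 0.26, limma adjusted p = 0.705). The values of lnc-IRF1-5 were 0.643 and 2.65 FPKM in the parent and 1.14 and 1.00 FPKM in P3, so the P3 values lay between the parental ones. At a lower level, lnc-IRF1-1 had 0.382 and 0.341 FPKM in the parent and 0.0934 and 0.137 FPKM in P3. In the fit with a minimum of 0.1 FPKM its log2 difference was -0.49. For lnc-IRF1-2 and lnc-IRF1-7 that fit gave -0.35 and -0.23, and their lines overlapped. These low IRF1 neighbours were named after their values were seen.

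**Figure D2:**
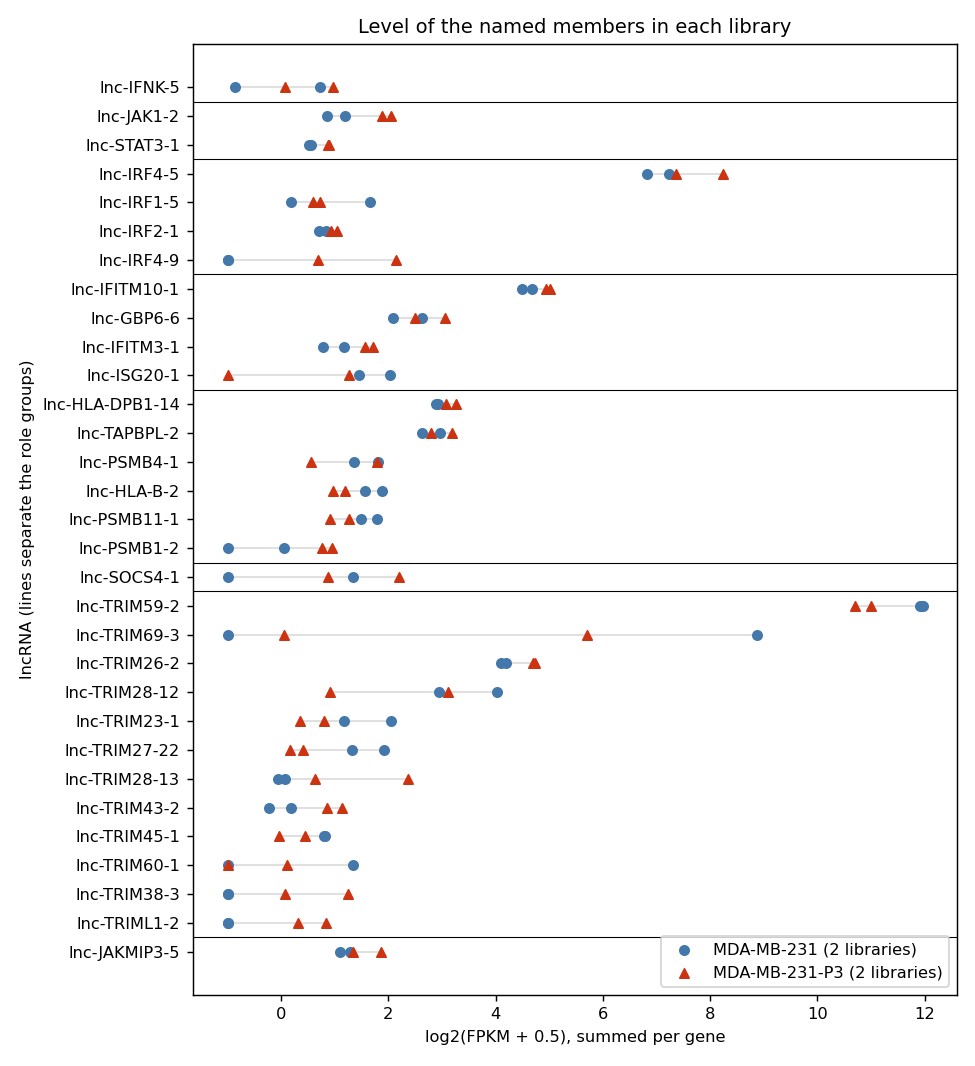
Each row is 1 of 31 tested members named by rule, and the horizontal axis gives log2(FPKM + 0.5) in each of the 4 libraries (circles, MDA-MB-231; triangles, MDA-MB-231-P3; grey lines, the range), with role groups separated by black lines. For lnc-TRIM59-2 and lnc-JAK1-2 the lines are apart, whereas lnc-TRIM69-3 spreads from 3.74e-06 to 470 FPKM within the parental line alone.

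Interferon-induced neighbours had no common direction. Of 8 tested, 4 had positive and 4 negative log2 differences, with a median of 0.14, and 0 were called. The IFITM family includes membrane proteins that hinder virus entry. Role groups go by the gene symbol, so IFITM10 is placed here by its name alone. Its neighbour lnc-IFITM10-1 had 22.1 and 25.2 FPKM in the parent and 30.3 and 31.9 FPKM in P3. It was the most abundant of this group and did not overlap between the lines, at 23.6 ± 2.21 and 31.1 ± 1.14 FPKM (SD, n = 2 each; log2 difference 0.39, SE 0.25, limma adjusted p = 0.509). The summed level of lnc-IFITM3-1 also did not overlap, with 1.75 and 1.21 FPKM in the parent and 2.76 and 2.44 FPKM in P3 (log2 difference 0.66, SE 0.29, limma adjusted p = 0.371). Its leading isoform did overlap, with 1.75 and 1.21 FPKM in the parent and 1.01 and 2.44 FPKM in P3 (log2 difference 0.10, limma adjusted p = 0.929), and its other isoform was above 0.01 FPKM in P3 replicate 1 only, at 1.75 FPKM. The lncRNA lnc-IFITM2-1 overlapped.

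ISG20 encodes an exonuclease that degrades RNA. For lnc-ISG20-1 the values were 2.23 and 3.60 FPKM in the parent and 1.90 FPKM and near 0 in P3, so the low P3 mean came from replicate 2 (log2 difference -1.61, SE 0.83, limma adjusted p = 0.429). The guanylate-binding protein neighbour lnc-GBP6-6 had 5.64 and 3.77 FPKM in the parent and 7.79 and 5.13 FPKM in P3, which overlap. MX1 encodes an antiviral GTPase, and lnc-MX1-5, named after its values were seen, had 0.726 and 0.550 FPKM in the parent and 0.139 and 0.163 FPKM in P3. It missed the 0.5 FPKM minimum. In the fit with a minimum of 0.1 FPKM its log2 difference was -0.80 (SE 0.27, limma adjusted p = 0.389), and that fit called 0% of 12720 genes.

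Antigen-presentation neighbours also went both ways. Of 12 tested, 7 had positive and 5 negative log2 differences, with a median of 0.16, and 0 were called. HLA-B is a class I gene whose product shows peptides to cytotoxic T cells. Its neighbour lnc-HLA-B-2 had 3.16 and 2.44 FPKM in the parent and 1.46 and 1.78 FPKM in P3, 2.80 ± 0.511 and 1.62 ± 0.223 FPKM (SD, n = 2 each; log2 difference -0.64, SE 0.28, limma adjusted p = 0.376). HLA genes and their pseudogenes share near-identical sequence and vary between people, so values of lncRNAs that overlap them are uncertain. The same holds for neighbours of the copied genes TRIM43 and TRIM43B, and TRIM73 and TRIM74.

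Class II neighbours differed less. HLA-DPB1 encodes a chain of a class II molecule, and lnc-HLA-DPB1-14 had 7.13 and 6.88 FPKM in the parent and 9.05 and 7.97 FPKM in P3 (log2 difference 0.26, SE 0.25, limma adjusted p = 0.624). HLA-DMB loads peptides onto class II molecules, and lnc-HLA-DMB-1 overlapped, at 0.581 and 1.19 against 0.812 and 1.18 FPKM. Outside class II, TAPBPL is a tapasin-related editor. Its neighbour lnc-TAPBPL-2 had 5.68 and 7.33 FPKM in the parent and 8.57 and 6.42 FPKM in P3, also overlapping.

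Lower in the peptide pathway, PSMB9 is a catalytic subunit of the interferon-induced immunoproteasome and TAP1 a subunit of the peptide transporter. They are neighbours on chromosome 6, and their lncRNAs differed in opposite directions. The lncRNA lnc-PSMB9-6 had 1.57 and 0.864 FPKM in the parent and 2.37 and 2.63 FPKM in P3 (log2 difference 0.83, SE 0.33, limma adjusted p = 0.337). For lnc-TAP1-1 the values were 0.602 and 0.832 FPKM in the parent and 0.355 and 0.441 FPKM in P3 (log2 difference -0.43, SE 0.36, limma adjusted p = 0.575). PSMB1 and PSMB4 are subunits of the constitutive proteasome. The lncRNA lnc-PSMB1-2 had 0.541 and 0 FPKM in the parent and 1.44 and 1.20 FPKM in P3 (log2 difference 1.33, SE 0.49, limma adjusted p = 0.326), and lnc-PSMB4-1 overlapped. PSMB11 is the thymus-type subunit, and lnc-PSMB11-1 had 2.94 and 2.29 FPKM in the parent and 1.89 and 1.39 FPKM in P3 (log2 difference -0.54, limma adjusted p = 0.445). For its most abundant isoform alone the log2 difference was 0.29, of the opposite sign.

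Position on chromosome 6 did not mark a common direction. Between the start of TRIM27 and the end of HLA-DPB1 (chromosome 6, 28870779 to 33057473, hg19), a stretch that holds the major histocompatibility complex, lay the neighbouring genes of 11 members. Of the 10 tested, 5 had positive and 5 negative log2 differences. Both P3 libraries lay above both parental ones in 4 and below them in 4, against 28.8% and 21.4% of all tested genes. This stretch includes lnc-TRIM27-22, with the third largest negative difference of any member.

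SOCS neighbours were mostly near the minimum level. Of 7 members, 1 was tested: lnc-SOCS4-1 was listed near 0 and at 2.02 FPKM in the parental line and at 4.08 and 1.33 FPKM in P3, so the lines overlapped (log2 difference 1.37, SE 0.94, limma adjusted p = 0.533). The lncRNA lnc-SOCS5-1 had 0.164 and 0.127 FPKM in the parent and 0.300 and 0.355 FPKM in P3, without overlap but below the test's minimum. For lnc-SOCS5-4 the values were 0.233 and 0.182 against 0.473 and 0.159 FPKM. The 2 SOCS2 neighbours lay apart in opposite directions, lnc-SOCS2-1 at 0.0758 and 0.0423 against 0.381 and 0.238 FPKM and lnc-SOCS2-2 at 0.183 and 0.444 against 0.145 and 0.0812 FPKM. SOCS2 mainly restrains growth hormone signalling.

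TRIM neighbours made up the largest group, with 44 members and 28 tested. Of the 28, 12 had positive and 16 negative log2 differences, with a median of -0.05, and 0 were called. Both P3 libraries lay above both parental ones for 8 of the 28 and below them for 5, against 28.8% and 21.4% of all tested genes. The most abundant member of all, lnc-TRIM59-2, ranked 21 among all 46902 genes. It had 3837 and 3997 FPKM in the parent and 1675 and 2052 FPKM in P3, with no overlap. The means were 3917 ± 114 and 1864 ± 267 FPKM (SD, n = 2 each), a 2.10-fold higher level in the parent, and the log2 difference was -1.08 (SE 0.29, limma adjusted p = 0.272). Without single libraries the log2 difference was -1.23 to -0.93. TRIM59 lies on the minus strand of chromosome 3 from 160150233 to 160203561 (hg19). The annotation places the small nuclear RNA pseudogene RNU7-136P inside TRIM59, the miRNA genes MIR16-2 and MIR15B 27620 and 27760 bases from it, and SCARNA7, a small Cajal body RNA, 29134 bases from it. Overlap of lnc-TRIM59-2 with a small RNA was not tested.

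The third most abundant member, lnc-TRIM69-3, varied more within the lines than between them. It had 470 and 3.74e-06 FPKM in the parent and 51.9 and 0.534 FPKM in P3, and its log2 difference of -1.06 had an SE of 3.85 (limma adjusted p = 0.904). Without parental replicate 1 it was 3.88. TRIM69 lies on chromosome 15, 10136 bases from B2M, the light chain of class I HLA molecules. A steadier value was seen for lnc-TRIM26-2, with 16.7 and 17.7 FPKM in the parent and 26.1 and 25.5 FPKM in P3. The means of 17.2 ± 0.725 and 25.8 ± 0.453 FPKM (SD, n = 2 each) did not overlap in their libraries, and the log2 difference was 0.57 (SE 0.24, limma adjusted p = 0.362). TRIM26 lies in the class I region of chromosome 6 and its promoter holds the ISRE match printed above.

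Further TRIM neighbours lay lower in both P3 libraries. The lncRNA lnc-TRIM27-22 had 3.27 and 1.998 FPKM in the parent and 0.822 and 0.617 FPKM in P3, 3.66-fold higher in the parent (log2 difference -1.34, SE 0.33, limma adjusted p = 0.268). For lnc-TRIM23-1 the values were 3.62 and 1.76 against 0.774 and 1.24 FPKM, and for lnc-TRIM45-1 1.23 and 1.25 against 0.479 and 0.858 FPKM. The lncRNA lnc-TRIM60-1 was near 0 and at 2.03 FPKM in the parent and at 0.585 FPKM and near 0 in P3, with no order between the lines.

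In the other direction, lnc-TRIM38-3 was listed at 0 in both parental libraries and at 1.87 and 0.553 FPKM in P3 (log2 difference 1.66, SE 0.57, limma adjusted p = 0.311). TRIM38 encodes a regulator of innate immune signalling. Likewise lnc-TRIML1-2 was at 0 in the parental line and at 1.28 and 0.741 FPKM in P3 (log2 difference 1.57, limma adjusted p = 0.284). Like lnc-TRIM38-3, it passed the minimum through P3 alone, so the minimum sets the sign of both. The lncRNA lnc-TRIM43-2 had 0.639 and 0.350 FPKM in the parent and 1.70 and 1.30 FPKM in P3 (log2 difference 1.02, limma adjusted p = 0.302).

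**Figure D3:**
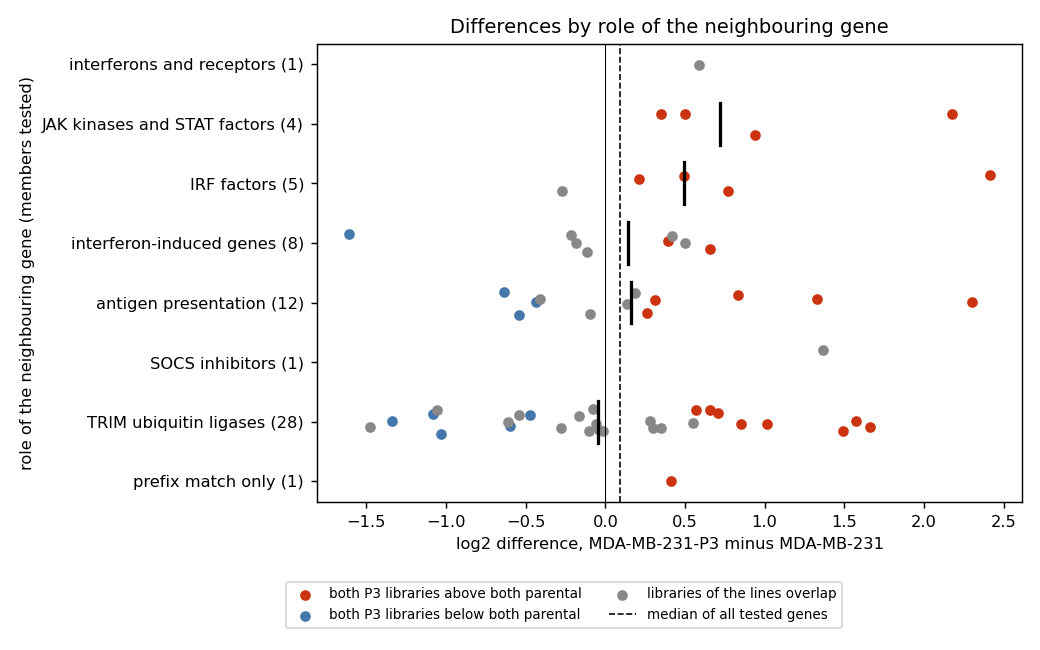
Each point is 1 of the 60 tested members, placed by its log2 difference (P3 minus parent) and by the role of its neighbouring gene, and coloured by whether both P3 libraries lie above or below both parental libraries or overlap with them. Black bars are group medians for groups of more than 1 and the dashed line is the median of all 6444 tested genes, 0.09; the group medians run from -0.05 for TRIM to 0.72 for JAK and STAT neighbours.

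A prefix can match a gene outside the family. The 3 members of this kind were named for IRF2BP2, IRF2BPL and JAKMIP3. The tested one, lnc-JAKMIP3-5, had 1.92 and 1.64 FPKM in the parent and 3.12 and 2.03 FPKM in P3 (log2 difference 0.41, limma adjusted p = 0.547). Values of lnc-IRF2BP2-4 were 0.308 and 0.267 against 0.332 and 0.498 FPKM, and those of lnc-IRF2BPL-6 were 0.236 and 0.244 against 0.282 and 0.238 FPKM.

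Members that share a neighbour did not always differ alike. Of 9 genes with at least 2 tested lncRNA neighbours, 5 had neighbours of a single sign and 4 had both. TRIM28, a corepressor that silences transposable elements, had both. Its neighbour lnc-TRIM28-13 had 0.457 and 0.550 FPKM in the parent and 4.64 and 1.05 FPKM in P3 (log2 difference 1.49, SE 0.64, limma adjusted p = 0.362). Without P3 replicate 1 the difference was 0.63. The other, lnc-TRIM28-12, had 15.9 and 7.23 FPKM in the parent and 1.38 and 8.15 FPKM in P3, so its lines overlapped (log2 difference -1.48, SE 0.86, limma adjusted p = 0.473). Without P3 replicate 1 that difference was -0.38.

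For lnc-TRIM28-12, whose sum overlapped between the lines, the listed isoforms differed from library to library. Its isoform 2 made up 79.3% and 70.2% of the gene in the parental libraries, at 12.6 and 5.08 FPKM, and was near 0 in both P3 libraries. In P3 replicate 2, isoform 3 led with 6.53 FPKM, and in P3 replicate 1 isoform 1 made up the whole of the 1.38 FPKM. The log2 difference of isoform 2 was -4.09 (SE 0.50), with the smallest p of any tested isoform of a member (limma adjusted p = 0.184). Isoform 2 passed the minimum through the parent alone, so the minimum sets its sign, and its values near 0 can be failed estimates. Of 74 tested member isoforms, 0 were called, where 0% of 8432 tested isoforms were called. An unadjusted limma p under 0.05 was found for 14 (18.9%, against 13.3% of all tested isoforms). The 74 isoforms belong to 56 genes, and isoforms of the same gene are not independent, so these counts are descriptions. Among the 14 were isoforms 11, 26, 47, 57 and 59 of lnc-TRIM26-2. Both P3 libraries lay above both parental ones for 27 of the 74, against 27.2% of all tested isoforms, and below them for 8, against 20.6%.

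Of the 60 tested members, 35 had a single isoform in the table. Among the other 25, the same isoform led in all 4 libraries for 12, another led in at least 1 library for 12, and 1, lnc-TRIML1-2, was at 0 in the parent. The leader differed for the 6 isoforms of lnc-HLA-B-2: isoform 7 led in parental replicate 1 and P3 replicate 2, isoform 6 in parental replicate 2 and isoform 5 in P3 replicate 1. The 61 isoforms of lnc-TRIM26-2 shared the level widely, and the leading isoform held 15.9% to 21.7% of the gene. The split of reads between overlapping isoforms is an estimate.

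**Figure D4:**
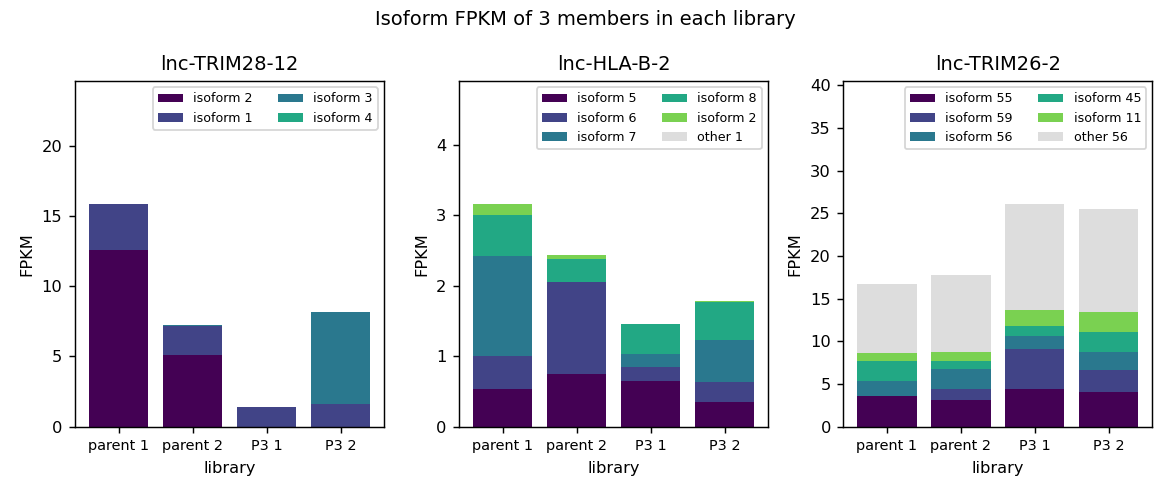
Stacked bars give the FPKM of the most abundant isoforms (up to 5, others in grey) of lnc-TRIM28-12, lnc-HLA-B-2 and lnc-TRIM26-2 in each library. Isoform 2 of lnc-TRIM28-12 is seen in the parental libraries and not in P3, where a different isoform leads in each library.

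More members were listed at 0 or near it in the parent than in P3. Under 0.01 FPKM in both parental libraries and above it in both P3 libraries were 6 members (5.56% of 108, against 3.58% of all genes with a mean of at least 0.1 FPKM). Among them were lnc-IRF4-9, lnc-IRF7-1, lnc-TRIM38-3, lnc-TRIM44-3 and lnc-TRIML1-2. The reverse was seen for 0 members, against 0.825% of all genes. Levels of at least 0.01 FPKM in 1 library only were listed for 8 members (7.41%, against 6.72%). In the parental libraries 90 and 86 members reached 0.01 FPKM (83.3% and 79.6%, against 85.7% and 82.2% of all 12720 genes). In P3 they were 102 and 98 (94.4% and 90.7%, against 91.9% and 89.6%), so the whole table was also listed more often in P3. The part that unequal depth may have in these counts was not tested, since the depth is unknown.

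The other 48 members, below 0.5 FPKM, were not in the main test. In the limma fit with a minimum of 0.1 FPKM, 0 of them were called and 2 had an unadjusted p under 0.05 (4.17%, against 7.93% of the genes between 0.1 and 0.5 FPKM). Both P3 libraries lay above both parental ones for 12 (25.0%, against 26.5% of the genes between 0.1 and 0.5 FPKM) and below for 5 (10.4%, against 12.6%). At the edge of the rule, lnc-IRF4-6 and lnc-IRF2-5 lay just inside, with means of 0.1001 and 0.102 FPKM. Just outside was lnc-TRIM27-16, with 0.0996 FPKM.

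Members whose neighbouring gene holds an ISRE match in its promoter numbered 11, of which 7 were tested. Their log2 differences were positive for 3 and negative for 4, with a median of -0.41, and the smallest limma adjusted p was 0.362. Among them, lnc-TRIM26-2, lnc-IFITM3-1 and lnc-TRIM44-2 lay higher in both P3 libraries, and lnc-TAP1-1 and lnc-ISG20-1 lay lower. Of all tested genes, 28.8% lay higher in this way and 21.4% lower. Of the untested members, lnc-MX1-5 lay lower and lnc-TRIM44-3 higher, and lnc-IFI44-8 and lnc-MX1-4 overlapped between the lines. Of all genes between 0.1 and 0.5 FPKM, 26.5% lay higher in both P3 libraries and 12.6% lower. A match in the neighbour's promoter was thus seen beside members of either sign.

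A list of other pathway lncRNAs, set by name, also held no called gene. Its 64 gene symbols and lncRNA names matched 110 lncRNAs of the table, of which 22 were tested. Of the 22, 13 had positive and 9 negative log2 differences, with a median of 0.10. BISPR, an interferon-induced lncRNA that starts 55 bases from the antiviral gene BST2 on chromosome 19 (17516495 to 17530133, hg19), had 0.240 and 0.413 FPKM in the parent and 1.48 and 3.25 FPKM in P3 (log2 difference 1.73, SE 0.43, limma adjusted p = 0.268). PTPN2 encodes a phosphatase that inactivates JAK and STAT proteins. Its neighbour lnc-PTPN2-6 was at 0 in both parental libraries and at 1.38 and 1.72 FPKM in P3 (log2 difference 2.03, limma adjusted p = 0.256). It passed the minimum through P3 alone, so the minimum sets its sign. Another PTPN2 neighbour, lnc-PTPN2-12, lay lower in P3, at 2.50 and 2.82 against 1.68 and 2.02 FPKM (log2 difference -0.43, limma adjusted p = 0.493). For lnc-RNF213-2 the values were 0.989 and 0.958 against 2.44 and 1.93 FPKM (log2 difference 0.86, limma adjusted p = 0.294).

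The most abundant lncRNAs of this list lay lower in P3 or overlapped. TRIM52-AS1 had 74.2 and 39.6 FPKM in the parent and 25.99 and 36.99 FPKM in P3, and lnc-MAVS-3, named for the adaptor of RNA sensing, had 26.8 and 22.1 against 19.4 and 14.7 FPKM. HCG11, in the extended histocompatibility region, varied within the parent, at 0.0306 and 12.5 FPKM, and had 6.80 and 14.2 FPKM in P3. Interferon-induced NRIR was listed near 0 in all 4 libraries.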

How the data were processed

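Strand-specific libraries, 2 of MDA-MB-231-P3 and 2 of its parent line, were made from mRNA fractions. Per the labels' protocols the authors aligned reads to hg19 with HISAT2 and deposited FPKM values, listed per lncRNA isoform. StringTie is named in the submitters' processing notes. Which lncRNA annotation and tool versions were used, and how reads matching several loci were handled, is not given in the sources used here. The per-library files equalled the series table in all 4 libraries.

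Isoform FPKM were summed per gene. Genes with a mean of at least 0.5 FPKM entered a two-sided test in limma 3.58.1 (R 4.3.3, intensity trend, no block) on log2(FPKM + 0.5), with Benjamini-Hochberg adjustment over all 6444 genes and a threshold of 0.05. Fold changes on this scale understate the change of low genes. Depth was unknown, so no counting interval is given. Values under 0.01 FPKM are called near 0, since they can be failed estimates.

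The members and lists were chosen with earlier results of these data known. Named members were those called, the 5 of smallest p, up to 10 per direction of largest difference, the 3 most abundant of each role group, and the 2 on each side of the 0.1 FPKM minimum. Some of these are not reported here, though counts and medians include them. From the other pathway list, those called, the 3 of smallest p and the 3 most abundant were named. Of that list, lnc-PTPN2-12 was added after its values were seen. lnc-IRF1-1, lnc-MX1-5, lnc-STAT3-2, lnc-PSMB9-6, lnc-TAP1-1, lnc-IFITM2-1, lnc-STAT4-1, lnc-STAT5A-2, lnc-SOCS2-1, lnc-SOCS2-2, lnc-IRF4-10, lnc-IRF4-12, lnc-IRF4-21, lnc-IRF4-22, lnc-HLA-DMB-1, NRIR and the members of short lists were added after their values were seen. Neighbour positions are from GENCODE release 44 lifted to GRCh37.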

Additional observations from a re-analysis of the deposited data

How the results depend on the processing

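Alternative settings were listed together with the main test. Members called numbered 0 in each of them: another pseudocount (0.1 or 1), another minimum, quantile or median scaling, no trend, the replicate block, isoform rows, or 1 library left out. The 4 called lncRNA genes of the whole table became 0 when the pseudocount was 1, when no filter or a minimum of 0.1 FPKM was used, without the trend, for isoform rows and without any single library, and 2 with quantile normalization. Members with an unadjusted p under 0.05, 10 in the main test, numbered 5 with a minimum of 1 FPKM, where fewer are tested, and 5 to 7 without single libraries. Members with both P3 libraries lower, 9, numbered 14 without a filter and 14 with a minimum of 0.1 FPKM, where more are tested. The count with both P3 libraries higher, 24 in the main test, also grew with that minimum, by 12 of the 48 members it added. The median of the tested members was 0.15 to 0.38 across all settings, lowest without P3 replicate 1 and highest without P3 replicate 2. Of the 33 differences the naming rule picked, 26 kept their sign in every setting that gave a value. Without single libraries, the others ranged from -5.997 to 3.88 for lnc-TRIM69-3 (3.88 without parental replicate 1 and 1.77 without P3 replicate 2), -1.78 to 0.56 for lnc-TRIM60-1, -1.004 to 0.46 for lnc-IRF1-5 and -0.20 to 1.38 for lnc-IFNK-5 (all turned without parental replicate 2), -0.0081 to 0.38 for lnc-TAPBPL-2 (without P3 replicate 1) and -1.03 to 0.21 for lnc-PSMB4-1 (without P3 replicate 2). For lnc-PSMB11-1, the leading isoform gave 0.29. The cause was not tested. Where 1 library is left out, the library that remains in its line is taken to be as variable as the other line. Depth is unknown, so what it limits could not be quantified.

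Replicate numbers are not tied to a batch or day in the labels, and deviations of same-numbered libraries correlated at 0.078 across genes. With the replicate number as a block, 0 lncRNA genes and 0 members were called, and 8 members had an unadjusted p under 0.05.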
